A study of Mus musculus with 24 samples.

Results

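EXT9, a 5-HT2B receptor antagonist given by mouth, was compared with vehicle in the distal lung of bleomycin-treated mice, 6 arrays of EXT9-treated mice (EXT9 below) against 6 of mice given bleomycin alone (BLM below), among 24 arrays in all. EXT9 mice received bleomycin s.c. at 50 IE/dose, 3 times/week over 2 weeks, with EXT9 p.o. at 30 mg/kg every day, started together with the first bleomycin dose. BLM mice received the same bleomycin with the vehicle, Tween80 at 2.5%. The series also holds 6 mice given bleomycin with EXT5, a second antagonist at 30 mg/kg, and 6 healthy mice given s.c. saline and vehicle. All mice were female C57BL/6 aged 12.5 weeks, with 1 array per mouse and 6 mice per group. Each signal is the brightness of a probe on an Illumina MouseWG-6 v2 chip, quantile normalized by the authors and given here as log2, so that a difference of 1 is a doubling. The bleomycin given alone and the bleomycin given with EXT9 were identical in dose and schedule, and no group received EXT9 without bleomycin, so the comparison describes EXT9 in treated lungs only. Tween80 is given for the saline and BLM mice, while the sources used here do not say whether EXT9 or EXT5 mice received it. The effect of a compound and that of a difference in vehicle cannot be told apart.

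5-HT acts on 5-HT2B receptors of fibroblasts and vascular smooth muscle cells, and blocking these receptors is studied as a way to limit the formation of myofibroblasts, the contractile, matrix-producing cells of scarring lung. Bleomycin breaks DNA, and repeated s.c. dosing damages the lung through the circulation. Distal lung is made up of alveolar type 1 and type 2 cells, capillary and lymphatic endothelium, smooth muscle of airways and vessels, ciliated and club cells of small airways, fibroblasts and macrophages, and a tissue array reads all of them together.

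The arrays fell into a pair of sets that share 1 sorted distribution of values each. They are taken here as the first run (saline 1, 3 and 5 and BLM 2, 3 and 5) and the second run (saline 2, 4 and 6, BLM 1, 4 and 6 and every EXT array). All EXT9 arrays therefore lie in the second run, and 3 of the 6 BLM arrays come from the other run. The middle probe of an array had a signal of 103.3 in second-run arrays, against 110.3 (110.2 for BLM 5) in first-run arrays. Between the runs, in saline and BLM arrays, 6860 of 22125 tested probes were lower in the second run and 267 higher, at adjusted p below 0.05 in limma. The runs were defined by these value distributions, so the excess of lower probes follows in part from the split and is not separate support for it. Because BLM arrays come from both runs, each result is given on all arrays, 6 against 6, and on second-run arrays, 6 against 3. The tissue was lung by its markers, with *Sftpc*, *Scgb1a1* and *Ager* at or above the 99.6 percentile of mean probe signal and *Alb*, the liver albumin gene, at 6.42 to 6.57 in EXT9 and 6.50 to 6.65 in BLM. That it was distal lung is the authors' description and is not shown by these markers. 4 arrays stood apart in the club and airway secretory list, with a score of 0.64 on EXT9 3 and of 1.68 on BLM 1, 1.35 on BLM 5 and 0.54 on BLM 6, against -0.69 to -0.15 on the other 8 arrays. BLM 1 and BLM 6 are 2 of the 3 second-run BLM arrays. The heart muscle list was highest on BLM 1 at 1.44 and BLM 5 at 0.71. A score is the mean log2 deviation of a list's genes from their mean over the EXT9 and BLM arrays.

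On second-run arrays, 272 probes rose in EXT9 lungs (1.23% of 22125) and 223 fell (1.01%), with a Benjamini-Hochberg adjusted p below 0.05 in limma. On all arrays, 376 probes rose (1.70%) and 1930 fell (8.72%). The share of lower probes on all arrays moved with the run and the scaling. The median difference over all tested probes was -0.06 on all arrays and -0.01 on second-run arrays, and lower probes made up 83.7% of the calls as deposited, 52.3% after joint quantile normalization, 61.1% after median centring and 45.6% with the run as a block (603 higher, 506 lower). Against the 3 first-run BLM arrays alone, 198 probes were higher and 5584 lower in EXT9. A total of 319 probes passed in both fits, 113 higher and 206 lower, and none passed with opposite signs. They were 64.4% of the second-run calls and 13.8% of the all-array calls, and 296 of them also passed with the run as a block. The fits share every EXT9 array and the second-run BLM arrays, so passing in both is not a replication. A shared sign was largely fixed in advance, and all 1930 lower and 376 higher all-array calls kept theirs on second-run arrays.

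**Figure D1:**
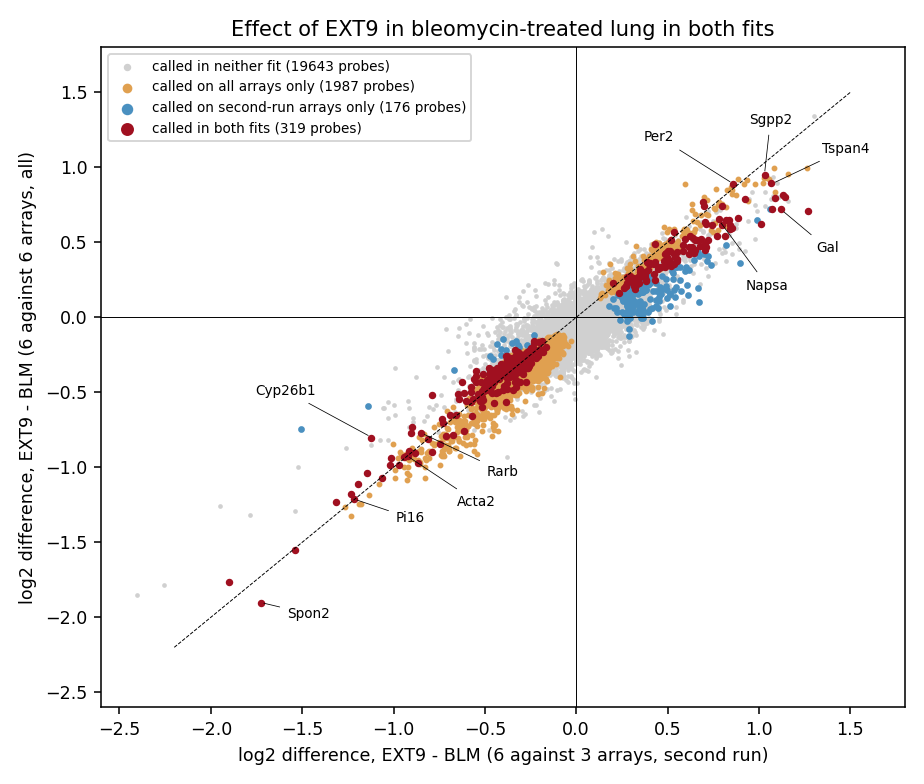
Log2 difference of EXT9 minus BLM for 22125 probes on second-run arrays (x axis, 6 against 3 arrays) and on all arrays (y axis, 6 against 6 arrays), with a dashed line of equal values. The 319 probes called in both fits lie along the line, among them *Spon2* at -1.73 and -1.90 and *Gal* at 1.12 and 0.72, and the probes called on all arrays only lie mostly below 0.

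Counted per gene, with the brightest probe of each, 179 of 11785 genes rose (1.52%) and 131 fell (1.11%) on second-run arrays, against 189 (1.60%) and 1132 (9.61%) on all arrays. Both fits called 78 genes higher (0.662%) and 121 lower (1.03%), and these 199 genes are the ones written of as having risen or fallen below, unless a fit is named. In second-run means, EXT9 was below saline controls as well for 119 of the 121 lower genes, and above them for all 78 higher genes. The genes were chosen by the same EXT9 arrays, and no such share was counted over all genes, so this is not a separate test. Among the 199 genes, *Cyp26b1* was the one that BLM itself had moved against saline in the second run. That comparison had 3 arrays per group and 9 probes in all passed, against 35 higher and 2 lower on all arrays. The median second-run difference of BLM minus saline was 0.10 over the 121 lower genes and -0.01 over the 78 higher genes. The second-run BLM arrays serve in both comparisons, so a high or low BLM array would move both.

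*Spon2*, which encodes the secreted matrix protein spondin 2, had the lowest second-run difference of the named genes that fell. Its log2 signal was 9.23, 9.20, 9.63, 9.57, 9.49 and 9.82 on EXT9 arrays 1 to 6, against 11.78, 11.06 and 10.81 on second-run BLM arrays and 11.21, 12.04 and 11.46 on first-run BLM arrays. Saline controls ranged from 10.94 to 11.48. Every EXT9 array lay below every BLM and saline array, by at least the distance from 9.82 to 10.81. The signal was 3.31-fold lower in EXT9 on second-run arrays (log2 difference -1.73 ± 0.19 SE, adjusted p = 0.00026, 6 against 3) and the log2 difference on all arrays was -1.90 ± 0.16 (adjusted p = 5.2e-07). It passed whichever array was left out, 9 of 9 times on second-run arrays and 12 of 12 on all.

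*Acta2* and *Myocd* of the smooth muscle list fell. *Acta2*, the smooth muscle actin that also marks myofibroblasts, had a log2 signal of 12.47 to 13.04 (median 12.62) in EXT9, against 13.82, 13.54 and 13.43 in second-run BLM and 13.47, 13.45 and 13.81 in first-run BLM. The groups did not overlap, while saline controls spread from 12.87 to 13.97 (median 13.85). The second-run log2 difference was -0.93 ± 0.21 SE (adjusted p = 0.033) and that on all arrays -0.92 ± 0.16 (adjusted p = 0.0025), and the other 3 *Acta2* probes gave second-run differences of -1.06 to -1.31, all called. *Myocd*, the cofactor that switches on smooth muscle genes, fell with a second-run difference of -0.55 ± 0.12 (adjusted p = 0.028) on its brightest probe, whereas its other 2 probes gave -0.29 and -0.02 and did not pass. Of 20 tested genes of the smooth muscle list, 2 fell on second-run arrays (*Acta2* and *Myocd*) and 11 on all arrays, beside 1.11% and 9.61% of all genes, and the list's median difference was -0.30 and -0.32, beside -0.01 and -0.07 over all genes. *Myh11*, smooth muscle myosin, had the lowest value of the list at -0.96 on second-run arrays without passing (adjusted p = 0.11) and passed on all arrays at -0.90 (adjusted p = 0.017). *Lmod1*, *Des*, *Actg2* and *Tagln* followed the same course, with second-run differences of -0.30 to -0.80 that did not pass and all-array differences of -0.35 to -0.89 that did. The list's score was -0.31 to -0.11 in EXT9, against 0.12 to 0.19 in second-run BLM and 0.18 to 0.32 in first-run BLM, so that all 6 EXT9 arrays lay below all BLM arrays. Fewer smooth muscle cells and less of this RNA per cell cannot be told apart in tissue RNA. BLM 1 and BLM 5, with high heart muscle and airway scores, had the highest *Acta2* values of BLM (13.82 and 13.81), and the part of those scores in the result was not tested. Without BLM 1 *Acta2* was called on all arrays (adjusted p = 0.0074) and not on second-run arrays (-0.82, adjusted p = 0.15), *Myocd* passed in neither fit, and second-run calls over all probes came to 40 higher and 18 lower. Of the 199 genes, 28 were still called on second-run arrays without BLM 1, 22 without BLM 4 and 44 without BLM 6, all 199 with the same sign.

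**Figure D2:**
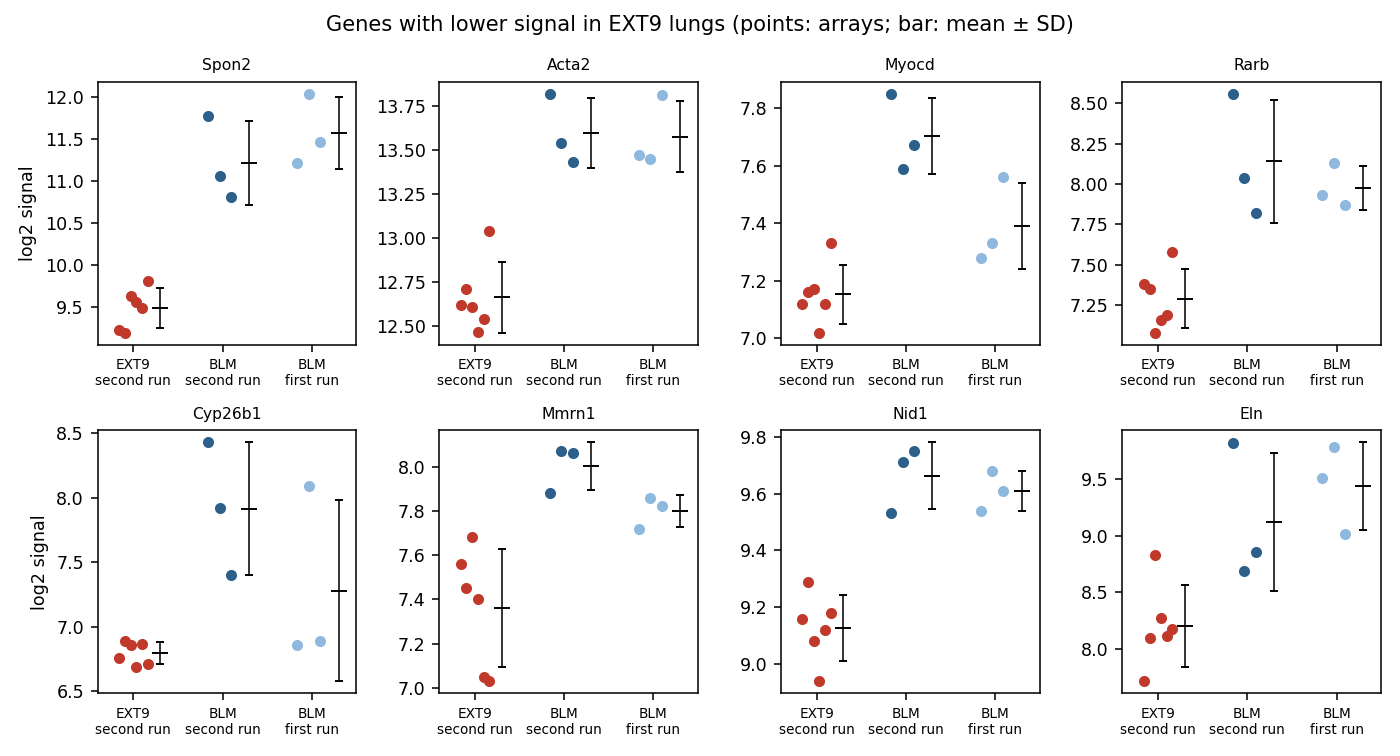
Log2 signal per array (y axis) for 8 genes in EXT9 (second run), BLM of the second run and BLM of the first run, with points for arrays and bars for mean ± SD. EXT9 arrays lie below all BLM arrays for *Spon2*, *Acta2*, *Rarb*, *Mmrn1* and *Nid1*, while for *Cyp26b1* 2 first-run BLM arrays at 6.86 and 6.89 sit among the EXT9 arrays and the ranges overlap for *Myocd* and *Eln*.

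*Rarb* and *Cyp26b1*, both tied to retinoic acid, fell. Retinoic acid, made from vitamin A, binds nuclear receptors that sit on paired half-sites in DNA, and CYP26 enzymes degrade it. *Rarb*, the gene of retinoic acid receptor beta and itself a textbook retinoic acid target, had a log2 signal of 7.08 to 7.58 (median 7.27) in EXT9, against 8.56, 8.04 and 7.82 in second-run BLM and 7.93, 8.13 and 7.87 in first-run BLM. EXT9 arrays lay below all BLM arrays, and the lowest saline array, at 7.35, lay among them. *Rarb* was 1.8-fold lower on second-run arrays (log2 difference -0.85 ± 0.18 SE, adjusted p = 0.024) and its all-array difference was -0.77 ± 0.14 (adjusted p = 0.0031), with a second probe at -0.73 (adjusted p = 0.042). *Cyp26b1*, which encodes a retinoic acid degrading enzyme, stood at 6.69 to 6.89 (median 6.81) in EXT9, against 8.43, 7.92 and 7.40 in second-run BLM and 6.86, 8.09 and 6.89 in first-run BLM. BLM arrays were thus split, with 4 high and 2 at the level of EXT9 and of saline controls (6.76 to 7.07). The second-run difference was -1.12 ± 0.15 (adjusted p = 0.0025) and the all-array difference -0.80 ± 0.19 (adjusted p = 0.012). Against saline, BLM was higher by 1.04 on second-run arrays (adjusted p = 0.047), a call that was lost on all arrays (0.70, adjusted p = 0.16). The EXT9 level lay close to the mean signal of 6.705 above which probes were tested. Other retinoid genes, looked up after these values were seen, did not pass. *Aldh1a1*, *Aldh1a2*, *Rarg*, *Rxra*, *Rbp4* and *Dhrs3* had second-run differences of -0.12 to 0.36, and the probes of *Cyp26a1*, *Stra6* and *Crabp1* were too dim to be tested.

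The retinoic acid response element of the *Rarb* promoter is shown because *Rarb* is a textbook target of retinoic acid. The stretch below runs 5′ to 3′ on the gene's strand at GRCm38.p6 chr14:16575483-16575559 (minus strand, RefSeq promoter table), within the 250 bases before the start, with the direct repeat of half-sites 5 bases apart in capitals. The repeat begins 53 bases before the start and ends 37 before it.
Rarb: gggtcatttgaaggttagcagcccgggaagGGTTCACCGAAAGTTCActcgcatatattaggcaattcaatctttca
This element was found on either strand in 0.0974% of 32851 promoter windows (250 bases before to 50 after a start), or 0.115% of genes with a window. Among the 55 genes named by the rule, 39 of which had a window, it was found in *Rarb* alone. The *Cyp26b1* window held no match to these letters. A match is a description of the sequence and not of binding in these lungs.

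On second-run arrays 3 of 5 tested lymphatic endothelial markers fell (*Ccl21a*, *Mmrn1* and *Reln*), the same 3 fell on all arrays, beside 1.11% and 9.61% of all genes, and the median of the lymphatic endothelial list was -0.52 in both. *Ccl21a*, the chemokine of lymphatic vessels that draws CCR7-bearing cells, had a log2 signal of 9.43 to 10.33 (median 9.73) in EXT9, against 10.81, 10.88 and 10.58 in second-run BLM and 10.74, 10.66 and 10.70 in first-run BLM. It differed by -0.92 ± 0.19 SE on second-run arrays (adjusted p = 0.02), and a probe assigned to *Ccl21c*, a near-identical copy whose signal cannot be told apart with certainty, by -1.20 ± 0.22 (adjusted p = 0.015). *Mmrn1*, a secreted glycoprotein of lymphatic endothelium, was 7.03 to 7.68 in EXT9, against 7.88, 8.07 and 8.06 in second-run BLM and 7.72, 7.86 and 7.82 in first-run BLM. The lowest BLM array stood just above the highest EXT9 array, and the difference was -0.64 ± 0.14 on second-run arrays (adjusted p = 0.024). *Reln* differed by -0.52 (adjusted p = 0.037, held in 2 of 9 fits with an array left out), whereas *Lyve1* at -0.46 (adjusted p = 0.46) and *Flt4*, the VEGF receptor 3 gene, at 0.05 (adjusted p = 0.65) did not pass. *Vegfd*, which encodes a ligand of that receptor, rose by 0.77 ± 0.19 on second-run arrays (adjusted p = 0.041) and 0.54 on all (adjusted p = 0.027), and the second-run call was lost whichever array was left out.

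Blood vessel endothelium gave a result that depended on which BLM arrays were used. The median second-run difference of 19 tested endothelial genes was -0.39, with 17 below 0 and no gene called, and on all arrays it was -0.07, again with none called. *Cdh5*, *Pecam1* and *Tie1* were at -0.65, -0.60 and -0.60 on second-run arrays (adjusted p = 0.28, 0.42 and 0.12). The list's score was -0.28 to 0.27 in EXT9, against 0.05 to 0.47 in second-run BLM and -0.66 to 0.06 in first-run BLM, and in saline and BLM together the list was higher in the second run by a median of 0.51. *Vwf*, the von Willebrand factor gene, lies among rows of the deposited table whose first-run values appear displaced, and it was measured on second-run arrays only. There it averaged 11.43 ± 0.23 in EXT9 (SD, n = 6) and 12.25 ± 0.11 in BLM (SD, n = 3), a difference of -0.81 ± 0.16 SE (adjusted p = 0.019).

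Ciliated cell genes fell on all arrays and did not pass on second-run arrays. All 17 tested genes of the list had second-run differences below 0, with a median of -0.46 and none called, and 13 of them fell on all arrays (median -0.68), beside 9.61% of all genes. *Ak7*, an adenylate kinase of cilia, was at -0.45 (adjusted p = 0.055) on second-run arrays and -0.49 (adjusted p = 0.005) on all. *Tekt1*, a tektin of the ciliary axoneme, was at -0.87 (adjusted p = 0.11) and -0.95 (adjusted p = 0.0082), while *Foxj1*, the master regulator of ciliogenesis, was at -0.15 in both fits (adjusted p = 0.5 and 0.23). The list's score was -0.41 to -0.21 in EXT9, against 0.52, 0.08 and -0.06 in second-run BLM and 0.25 to 0.54 in first-run BLM, with no overlap. Outside the list, *Rsph3a*, a radial spoke gene, fell in both fits, with a log2 signal of 8.29 to 8.80 in EXT9, against 9.84, 9.04 and 9.20 in second-run BLM and 9.28 to 9.45 in first-run BLM. Its second-run difference was -0.81 ± 0.17 SE (adjusted p = 0.022). *Morn3* and *Ppp1r36* fell as well, by 0.73 and 0.69 on the log2 scale on second-run arrays, calls that held in 1 and 4 of 9 fits with an array left out. Their dimmer probes did not pass there, at -0.33, -0.43 and -0.02 for *Morn3* and -0.31 for *Ppp1r36*. The club and airway secretory scores given above differed among arrays, and their part in the ciliated result was not tested. The ciliated score was -0.33 on EXT9 3, where the club score was 0.64, and 0.53 on BLM 2, where it was -0.15. It was 0.52 on BLM 1 and 0.54 on BLM 5, where the club scores were 1.68 and 1.35. On BLM 3, 4 and 6 it was 0.25, 0.08 and -0.06, with club scores of -0.24, -0.60 and 0.54. On the other EXT9 arrays it was -0.41 to -0.21, with club scores of -0.69 to -0.56. The 8 club and airway secretory genes had a median of -0.44 on second-run arrays with none called, *Bpifb1*, *Bpifa1* and *Scgb3a1* were at -2.84, -2.40 and -1.78 (adjusted p = 0.34, 0.43 and 0.43), and *Scgb1a1*, the club cell secretoglobin, was at 0.10 (adjusted p = 0.5). The 12 heart muscle genes had a median of -0.74 with none called on second-run arrays and 1 on all arrays (*Actc1*). *Tff2*, a trefoil factor gene of mucous epithelium, stood at 9.78 on EXT9 3 and 6.76 to 7.20 on the other EXT9 arrays, against 11.19, 6.89 and 9.94 in second-run BLM and 7.40, 7.00 and 9.50 in first-run BLM.

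**Figure D3:**
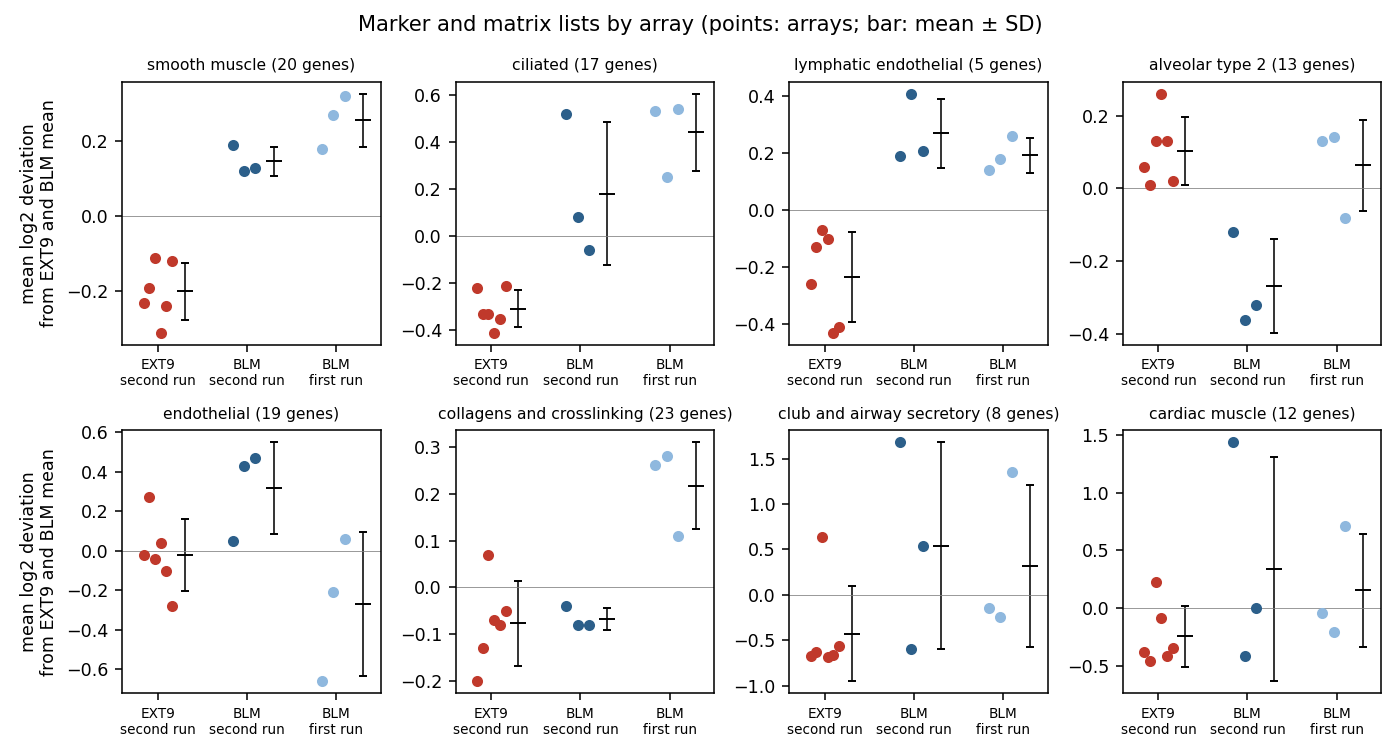
Mean log2 deviation of a list's genes on each array (y axis) for EXT9 (second run), BLM of the second run and BLM of the first run, with points for arrays and bars for mean ± SD. Smooth muscle, ciliated and lymphatic scores of EXT9 lie below all BLM arrays, alveolar type 2 scores lie above second-run BLM only, and collagen scores of EXT9 (-0.20 to 0.07) lie around second-run BLM (-0.08 to -0.04) and below first-run BLM (0.11 to 0.28).

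Of matrix genes, *Nid1* and *Lama5* of the basement membrane fell, and no gene of the collagen list was called on second-run arrays. *Nid1*, which encodes nidogen, a linker of laminin and collagen IV, was 8.94 to 9.29 (median 9.14) in EXT9, against 9.53, 9.71 and 9.75 in second-run BLM and 9.54, 9.68 and 9.61 in first-run BLM, with no overlap. Its difference was -0.54 ± 0.11 SE on second-run arrays (adjusted p = 0.022) and -0.51 ± 0.10 on all (adjusted p = 0.0042), although a dimmer *Nid1* probe gave 0.34 (adjusted p = 0.48). *Lama5*, laminin alpha 5, differed by -0.42 (adjusted p = 0.019) and -0.35 (adjusted p = 0.016), and by -0.32 with the run as a block (adjusted p = 0.06). These were the 2 of 21 basement membrane genes called on second-run arrays, where 20 of 21 were below 0 and the median was -0.16, and 6 fell on all arrays (median -0.20), beside 1.11% and 9.61% of all genes. *Fbln2*, fibulin 2 of elastic fibres, differed by -0.62 (adjusted p = 0.042) on second-run arrays, *Mmp14*, a membrane-bound collagenase, by -0.61 (adjusted p = 0.019), and the metalloproteinase inhibitor gene *Timp4* by -0.36 (adjusted p = 0.046), and all 3 were called on all arrays too. With an array left out, the second-run call of *Fbln2* held in 0 of 9 fits, that of *Timp4* in 1 and that of *Mmp14* in 6.

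The 23 tested genes of collagens and their crosslinking had a median of 0.01 on second-run arrays, with none called, and of -0.12 on all arrays, with 4 lower and 1 higher, beside 9.61% and 1.60% of all genes. *Col1a1* was 9.11 to 9.70 (median 9.31) in EXT9, against 9.75, 9.38 and 9.77 in second-run BLM and 9.62, 10.07 and 9.63 in first-run BLM. The groups overlapped, and the difference was -0.30 on second-run arrays (95% interval -0.78 to 0.17, adjusted p = 0.48) and -0.38 on all (-0.72 to -0.03, adjusted p = 0.14). For *Col3a1* the sign turned, at 0.23 on second-run arrays and -0.27 on all (adjusted p = 0.57 and 0.52). *Eln*, elastin, was 7.71 to 8.83 in EXT9, against 9.82, 8.69 and 8.86 in second-run BLM and 9.51, 9.79 and 9.02 in first-run BLM. It fell on all arrays (-1.08 ± 0.23 SE, adjusted p = 0.007) and with the run as a block (-0.90, adjusted p = 0.034), whereas the second-run difference of -0.92 ± 0.28 had an adjusted p of 0.094. The proteoglycan gene *Dcn* (decorin) differed by -0.45 on second-run arrays (95% interval -0.87 to -0.02) and -0.38 on all (-0.68 to -0.08), and passed in neither fit (adjusted p = 0.24 and 0.093). *Tgfb1* was at 0.12 (-0.14 to 0.39) and 0.06 (-0.13 to 0.25) with adjusted p = 0.63 and 0.68. *Pi16*, a marker of fibroblasts around vessels, fell by 1.22 on the log2 scale on second-run arrays (adjusted p = 0.045, lost whichever array was left out), with 7.24 to 7.78 in EXT9, against 9.26, 8.44 and 8.48 in second-run BLM and 8.39, 8.73 and 9.02 in first-run BLM. The fibroblast list as a whole had a median of 0.02 on second-run arrays and -0.26 on all.

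*Htr2b* and *Cdkn1a* did not pass in either fit. *Htr2b*, the 5-HT2B receptor gene, was dim in all groups, at 6.67 to 6.92 in EXT9 and 6.76 to 6.90 in BLM, and its second-run difference was 0.02 (95% interval -0.13 to 0.17). *Htr2a* probes were too dim to be tested, and none of 5 tested genes of the serotonin list was called (*Slc6a4*, the serotonin transporter gene, at 0.23, adjusted p = 0.14). *Cdkn1a*, which encodes the cell cycle inhibitor p21, was 10.05 to 11.13 (median 10.71) in EXT9, against 10.95, 10.82 and 10.60 in second-run BLM and 11.07, 10.54 and 10.83 in first-run BLM, and a median of 9.31 and at most 9.63 in saline. EXT9 and BLM overlapped, with a difference of -0.13 on second-run arrays (95% interval -0.47 to 0.20, adjusted p = 0.69) and -0.14 on all (-0.41 to 0.13, adjusted p = 0.49). The 2 dimmer *Cdkn1a* probes had larger negative differences that did not pass, -0.35 and -0.37 on second-run arrays (adjusted p = 0.095 and 0.12) and -0.33 and -0.30 on all (adjusted p = 0.052 and 0.055). Of 27 tested p53 targets, *Mdm2*, which encodes the ubiquitin ligase of p53, was the one called on second-run arrays and the one called on all arrays. The shares of all genes that fell were 1.11% and 9.61%. *Mdm2* was 9.84 to 10.28 in EXT9, against 10.72, 10.59 and 10.33 in second-run BLM and 10.57, 10.45 and 10.70 in first-run BLM. Its second-run difference was -0.52 ± 0.12 SE (adjusted p = 0.033, held in 3 of 9 fits with an array left out). No member of the Akt and cyclin D list (20 tested) was called on second-run arrays, and 3 fell on all arrays, beside 9.61% of all genes. Of 31 DNA replication genes 3 rose on second-run arrays (*Mcm6*, *Cdc6* and *Lig1*), beside 1.52% of all genes, with 27 above 0 and a median of 0.13. Only *Cdc6* of these passed on all arrays too, at 0.33 (adjusted p = 0.022) and 0.26 (adjusted p = 0.014). The *Mcm6* call held in 2 of 9 fits with an array left out. The dimmer *Mcm6* probes were at 0.05 and 0.08 on second-run arrays without passing (adjusted p = 0.81 and 0.71 in limma).

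*Tspan4*, which encodes a membrane tetraspanin, had the smallest adjusted p of the named genes that rose. It was 9.62 to 10.02 (median 9.81) in EXT9, against 8.51, 9.02 and 8.70 in second-run BLM, 9.19, 9.04 and 9.03 in first-run BLM and 8.54 to 9.26 in saline, so that EXT9 lay above every BLM and saline array. The signal was 2.09-fold higher on second-run arrays (log2 difference 1.07 ± 0.10 SE, adjusted p = 5.1e-05), the all-array difference was 0.89 ± 0.11 (adjusted p = 0.00031), and every fit that left out 1 array called it. Its other 2 probes lay near background and did not pass. *Apoc1*, an apolipoprotein of lipid-laden macrophages, was 10.62 to 10.79 in EXT9, against 9.88, 9.36 and 9.60 in second-run BLM and 10.63, 10.18 and 10.11 in first-run BLM. BLM 2 reached the level of EXT9, and the difference was 1.07 ± 0.15 on second-run arrays (adjusted p = 0.0025) and 0.72 ± 0.16 on all (adjusted p = 0.01). *Gal*, the galanin neuropeptide gene, was 8.19 to 8.77 in EXT9, against 7.22, 7.45 and 7.42 in second-run BLM and 8.48, 7.96 and 8.05 in first-run BLM, with BLM 2 again among the EXT9 arrays. The differences were 1.12 ± 0.21 (adjusted p = 0.016) and 0.72 ± 0.20 (adjusted p = 0.026). *Sgpp2*, a sphingosine-1-phosphate phosphatase gene, *Nrn1* (neuritin) and *Gdnf* (a neurotrophic factor) rose by 1.03, 0.92 and 0.80 on second-run arrays without overlap with BLM.

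Alveolar type 2 genes were split. These cells make surfactant, the lipid and protein film that keeps alveoli open. *Napsa*, a protease that processes surfactant protein B, was 13.06 to 13.51 (median 13.24) in EXT9, against 12.55, 12.34 and 12.55 in second-run BLM and 12.86, 13.04 and 12.29 in first-run BLM. EXT9 lay above all BLM arrays, BLM 3 by a margin of 13.06 against 13.04, and the difference was 0.78 ± 0.20 SE on second-run arrays (adjusted p = 0.046, held in 1 of 9 fits with an array left out) and 0.65 ± 0.17 on all (adjusted p = 0.018). *Sftpa1*, surfactant protein A, was 12.83 to 13.13 in EXT9, against 12.43, 12.24 and 12.15 in second-run BLM and 12.81, 12.83 and 12.70 in first-run BLM, so that BLM 3 stood level with the lowest EXT9 array. Its difference was 0.71 ± 0.15 on second-run arrays (adjusted p = 0.022) and 0.45 ± 0.15 on all (adjusted p = 0.0497, held in 2 of 12 fits with an array left out). *Slc34a2*, a phosphate transporter of these cells, rose on second-run arrays only (0.82, adjusted p = 0.033, held in 2 of 9 fits with an array left out, and 0.48, adjusted p = 0.11, on all). *Sftpc* and *Sftpb* did not pass in either fit, at -0.07 and 0.11 on second-run arrays (adjusted p = 0.72 and 0.67). On second-run arrays 3 of 13 tested genes rose and the median was 0.29, and on all arrays 2 rose, 1 was called lower (*Lyz1*) and the median was 0.18, beside 1.52% of all genes higher on second-run arrays and 1.60% higher and 9.61% lower on all. The *Lyz1* probes, for a lysozyme gene, disagreed. The brightest, at a mean log2 signal of 14.40, gave -0.38 on all arrays (adjusted p = 0.017) and -0.18 on second-run arrays (adjusted p = 0.27), whereas the other 2 gave 0.62 and 1.66 on all arrays (adjusted p = 0.045 and 0.005) and 1.01 and 2.04 on second-run arrays (adjusted p = 0.015 and 0.019), so no direction is given for this gene. The list's score was 0.01 to 0.26 in EXT9, against -0.36 to -0.12 in second-run BLM and -0.08 to 0.14 in first-run BLM.

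**Figure D4:**
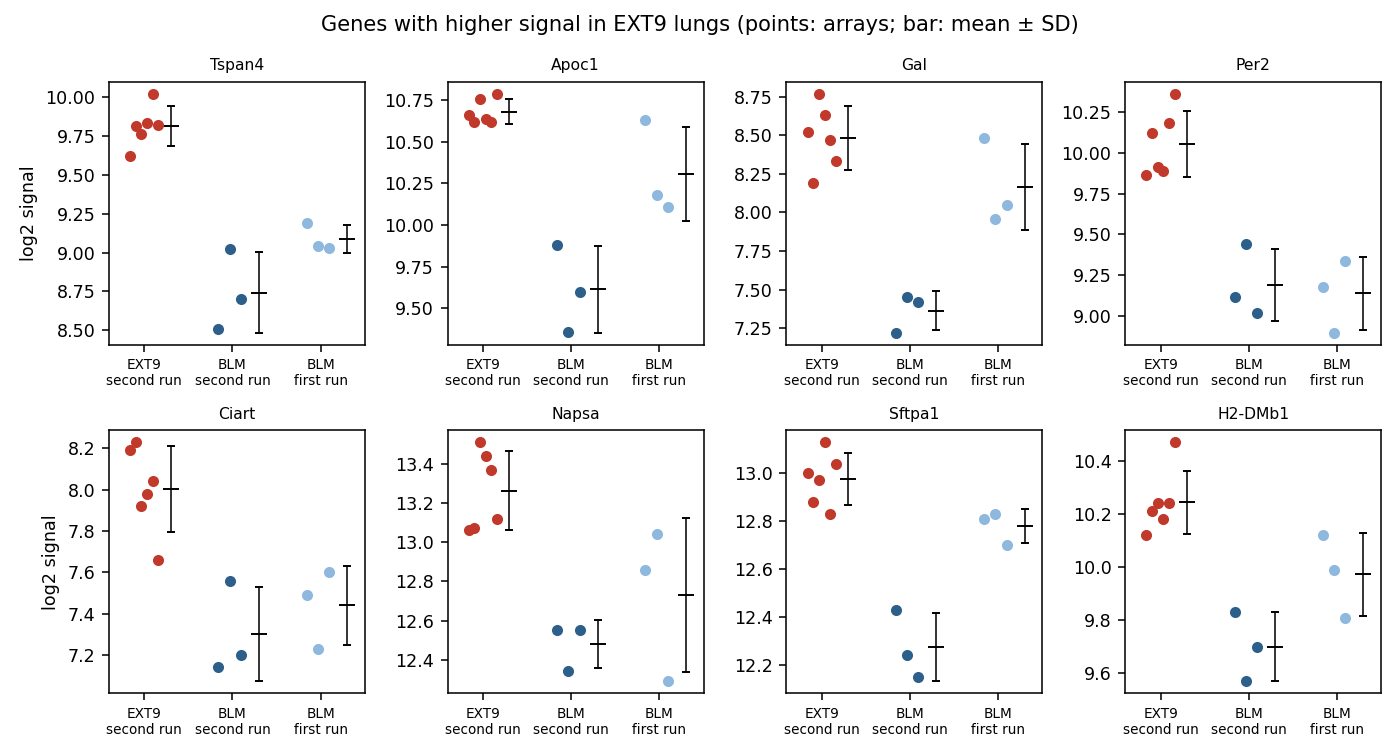
Log2 signal per array (y axis) for 8 genes in EXT9 (second run), BLM of the second run and BLM of the first run, with points for arrays and bars for mean ± SD. EXT9 arrays lie above all BLM arrays for *Tspan4*, *Per2*, *Ciart* and *Napsa*, whereas 1 first-run BLM array reaches the EXT9 range for *Apoc1*, *Gal*, *Sftpa1* and *H2-DMb1*.

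Clock genes moved in both directions. The circadian clock runs on a loop in which the ARNTL (BMAL1) and CLOCK proteins bind E-boxes and switch on the *Per*, *Cry* and *Ciart* genes, whose products hold ARNTL back, while ROR and REV-ERB proteins (*Nr1d1*, *Nr1d2*) act on the *Arntl* gene. *Per2* was 9.86 to 10.36 (median 10.01) in EXT9, against 9.12, 9.44 and 9.02 in second-run BLM, 9.18, 8.90 and 9.34 in first-run BLM and 8.14 to 9.55 in saline, with no overlap. It rose by 0.86 ± 0.21 SE on second-run arrays (adjusted p = 0.045) and 0.89 ± 0.17 on all (adjusted p = 0.0042), a second-run call that held in 1 of 9 fits with an array left out. *Ciart*, a repressor of ARNTL, was 7.66 to 8.23 in EXT9, against 7.14, 7.56 and 7.20 in second-run BLM and 7.49, 7.23 and 7.60 in first-run BLM, and rose by 0.70 ± 0.12 (adjusted p = 0.013) and 0.63 ± 0.12 (adjusted p = 0.0032). *Arntl* was 6.71 to 6.88 in EXT9, against 7.07, 7.05 and 7.13 in second-run BLM and 7.16, 7.26 and 7.20 in first-run BLM, and fell by 0.29 on the log2 scale (adjusted p = 0.036, held in 2 of 9 fits with an array left out) and by 0.35 (adjusted p = 0.0032), a small change close to the lower end of tested signals. *Nr1d1* fell on all arrays (-0.52, adjusted p = 0.011) but not on second-run arrays (-0.32, adjusted p = 0.13). *Per1*, *Per3*, *Dbp* and *Nr1d2* lay between -0.07 and 0.38 on second-run arrays without passing. Of 14 tested clock genes 2 rose and 1 fell on second-run arrays, and 3 rose and 2 fell on all, beside 1.52% higher and 1.11% lower of all genes on second-run arrays and 1.60% and 9.61% on all. The hour at which each mouse was killed is not given in the sources used here, and its part in these values was not tested.

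Binding sites of this loop are shown for *Ciart* and *Arntl* because both genes passed and carry them. Both stretches come from the RefSeq promoter table (GRCm38.p6) and run 5′ to 3′ on the gene's strand. *Ciart* (chr3:95882237-95882374, minus strand, 116 to 39 bases before the start from the first to the last match) has 3 E-boxes, CACGTG, in capitals. *Arntl* (chr7:113207528-113207556, plus strand, the match beginning at base 27 of the transcript) has the ROR and REV-ERB element in capitals.
Ciart: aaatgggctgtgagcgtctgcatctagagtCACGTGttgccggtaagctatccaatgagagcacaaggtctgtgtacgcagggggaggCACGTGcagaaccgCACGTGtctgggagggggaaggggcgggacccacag
Arntl: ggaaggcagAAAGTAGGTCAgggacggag
An E-box was present in 7.15% of all promoter windows and the ROR and REV-ERB element in 0.384%, on either strand. Counted per gene, as the named genes are below, the shares were 8.09% and 0.459%. Among the named genes with a window, 6 had an E-box (*Ciart*, *Tspan4*, *Sgpp2*, *Hebp1*, *Asb2* and *Reln*), 4 of them higher and 2 lower in EXT9. The CArG box of smooth muscle promoters was searched only as CC, 6 bases of A or T, and GG. These letters were present in 1.63% of windows (1.81% of genes) and, among the named genes, in *Asb2* alone. Boxes that depart from these letters were not searched, so the lack of a match, as for *Acta2*, does not show that a promoter has no CArG box.

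Few genes of the immune lists were called. Of 10 tested MHC class II genes 2 rose on second-run arrays and the median was 0.28, and on all arrays 3 rose and the median was 0.23, beside 1.52% and 1.60% of all genes that rose. *H2-DMb1*, which helps to load peptides on class II molecules, was 10.12 to 10.47 in EXT9, against 9.83, 9.57 and 9.70 in second-run BLM and 10.12, 9.99 and 9.81 in first-run BLM, and rose by 0.54 ± 0.09 SE on second-run arrays (adjusted p = 0.0089) and 0.40 ± 0.09 on all (adjusted p = 0.0093). *H2-Aa*, a class II chain, rose on second-run arrays (0.60, adjusted p = 0.014) and not on all (0.31, adjusted p = 0.19). *Ifit3*, an interferon-induced gene, rose by 0.54 and 0.57 (adjusted p = 0.022 and 0.0021), but it was the 1 interferon gene of 26 called on second-run arrays and the list's median was -0.05. *Cxcl16*, a chemokine of macrophages and epithelium, rose by 0.55 and 0.43 (adjusted p = 0.022 and 0.011), its dimmer probe by 0.09 without passing. No gene of the T cell, B cell, NK cell, neutrophil or macrophage and monocyte lists was called on second-run arrays. On all arrays *Lyz2* and *Lcn2* of these lists were called higher (0.73 and 0.93, adjusted p = 0.03 and 0.019), beside 1.60% of all genes. *Mmp9* and *Cd8b1* were called lower (-0.40 and -0.34, adjusted p = 0.023 and 0.014), beside 9.61%. Of 8 alveolar macrophage genes 7 were above 0 on second-run arrays (median 0.28) and *Krt79* was called there (0.67, adjusted p = 0.046), with none called on all arrays. Of 5 plasma cell genes *Sdc1*, the syndecan 1 gene, rose in both fits (0.38 and 0.25, adjusted p = 0.038 and 0.0497), and the median was -0.02 on second-run arrays. With an array left out, the *Sdc1* call held in 3 of 9 second-run fits and 3 of 12 all-array fits. Its dimmer probe gave -0.06 and -0.17 without passing. Glucocorticoid-responsive genes had 5 of 23 members higher on all arrays (*Zbtb16*, *Lcn2*, *Fkbp5*, *Sult1a1* and *Arrdc2*) beside 1.60% of all genes, and none called on second-run arrays, with medians of 0.16 and 0.15. Of 27 NRF2 and aryl hydrocarbon receptor targets 7 fell on all arrays (median -0.22), beside 9.61% of all genes, whereas 1 rose and none fell on second-run arrays (median -0.14). The 41 respiratory chain and 43 ribosomal protein genes had second-run medians of 0.03 and 0.06 with none called.

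**Figure D5:**
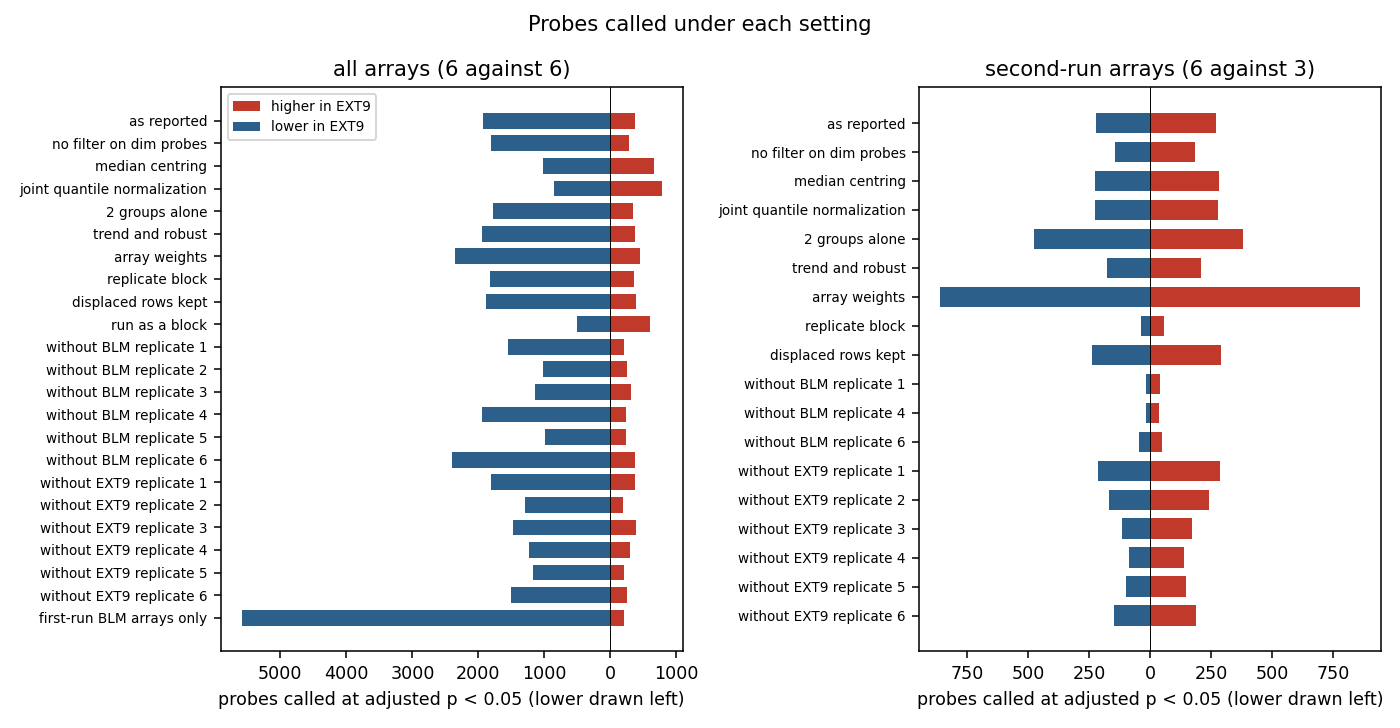
Number of probes called at adjusted p below 0.05 (x axis, higher in EXT9 to the right, lower drawn to the left) under each setting (y axis) on all arrays and on second-run arrays, on separate scales. Lower probes outnumber higher ones on all arrays as deposited (1930 against 376) but not with the run as a block (506 against 603), and second-run calls come to 36 to 49 higher and 18 to 47 lower when a second-run BLM array is left out.

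EXT9 and EXT5 arrays all lie in the second run and share dose and schedule, so their means can be set against each other without the BLM mean. This comparison was added after the values above were known. Its spread was estimated from all 18 second-run arrays, BLM and saline included. Between the compounds 14 probes were higher in EXT9 (0.0633% of 22125) and 17 lower (0.0768%), while 2554 had an unadjusted p below 0.05. Of the 199 genes called against BLM in both fits, 4 differed between the compounds (*Jdp2*, *Trp53bp1*, *Pygo2* and *Eif1b*). For 189 of the 199 the 95% interval of the difference lay within 0.5 of 0, a count not made over all genes. That margin is wider than some effects against BLM. *Lama5*, at -0.42 against second-run BLM, differed by -0.21 between the compounds (-0.36 to -0.06), and EXT5 against BLM did not pass (-0.21, adjusted p = 0.22 in limma). *Spon2* averaged 9.49 ± 0.24 in EXT9 and 9.61 ± 0.20 in EXT5 (SD, n = 6 each), a difference of -0.12 (95% interval -0.44 to 0.20). *Acta2* differed by 0.12 (-0.24 to 0.48), *Rarb* by -0.05 (-0.36 to 0.27) and *Tspan4* by 0.12 (-0.04 to 0.29), none of which passed. Higher in EXT9 than in EXT5 were *Dusp8*, a MAP kinase phosphatase gene (0.52 ± 0.09 SE, adjusted p = 0.019, held in 7 of 12 fits with an array left out), *Jdp2*, an AP-1 family repressor (0.45 ± 0.06, adjusted p = 0.0094), and *Srf*, the serum response factor that binds CArG boxes (0.37 ± 0.06, adjusted p = 0.013). *Srf* averaged 9.52 in EXT9, 9.15 in EXT5 and 9.59 in second-run BLM, so EXT9 lay near BLM. *Dusp8* averaged 8.54, 8.02 and 8.11, and *Jdp2* 8.80, 8.35 and 8.35, in the same order. Lower in EXT9 were the clock repressor *Nr1d1* (-0.48 ± 0.09, adjusted p = 0.047, held in 2 of 12 fits with an array left out) and the p53 target *Phlda3* (-0.40 ± 0.06, adjusted p = 0.013).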

How the data were processed

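Distal lung RNA of 24 mice was hybridised by the authors to Illumina MouseWG-6 v2 chips. The authors deposited linear intensity values of 45281 probes, quantile normalized within each array run; the software and background correction are not given in the sources used here. Log2 was taken with a pseudocount of 0. Array runs were inferred from shared value distributions, since the labels do not name them. A table of non-normalized signals was not used, because its 48 value columns could not be matched to samples by name. In 6 stretches of the table (734 rows) signals of the first run seem shifted onto the wrong probes (correlation of the run means 0.16, against 0.995 elsewhere), and these rows were left out. The 50.0% of probes with the higher mean signal (log2 above 6.705) were kept, leaving 22125 for testing, of which 18500 carry 1 gene symbol in the chip annotation. The number of arrays limits the precision.

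Groups were fitted with limma 3.58.1 in R 4.3.3 without covariates, on all 24 arrays and on the 18 second-run arrays, with Benjamini-Hochberg adjustment over all tested probes and a threshold of 0.05. Both fits were tested on simulated data. A gene was read from its brightest probe. Named were the 15 highest and 15 lowest second-run differences among genes called with the same sign in both fits, up to 3 such members of each of 46 lists (22 of cell types, 24 of pathways), and a fixed set of genes tied to the study's subject (*Htr2a* was too dim and *Gdf15* is not analysed here). That gave 55 genes. Further list members, the retinoid genes and the genes between EXT9 and EXT5 were named after their values were seen. The comparison, the lists and the rule were chosen with earlier results of these data known. Alternatives were no filter, median centring, joint quantile normalization, the compared groups alone, trend and robust variances, array weights, replicate or run as a block, displaced rows kept, each array left out, and first-run BLM arrays alone, the last added after the data were seen.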

Additional observations from a re-analysis of the deposited data

Results flagged for a closer look

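In 154 groups of 4 to 10 arrays (named genes and list scores), 6 held an array whose gap to the nearest other, over the group's range, passed Dixon's 95% limit, a rule that chance meets in about 1 of 20 groups. EXT9 3 was the array in 3 of the 6. *Scara3* was at 8.44 on EXT9 3, against 7.98 to 8.07 on the other EXT9 arrays. *Ifit3* was at 10.70 on EXT9 3, against 10.90 or more on the others. The club and airway secretory score was 0.64 on EXT9 3 and -0.69 to -0.56 on the others. *Bpifb5* was at 8.05 on EXT9 2, against 8.38 to 8.49 on the others, and *H2-DMb1* at 10.47 on EXT9 6, against 10.12 to 10.24. The T cell score was 0.27 on EXT9 1 and -0.08 to 0.02 on the others.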

How the results depend on the processing

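On all arrays, where 376 probes were higher and 1930 lower, median centring gave 655 and 1028, joint quantile normalization 776 and 852, the run as a block 603 and 506, and first-run BLM arrays alone 198 and 5584. Leaving out an array gave 195 to 387 higher and 990 to 2395 lower. On second-run arrays (272 and 223), array weights gave 861 and 860, the compared groups alone 382 and 476, and no filter 183 and 144. Leaving out an array gave 36 to 286 higher and 18 to 214 lower, with 40 and 18 without BLM 1, 36 and 18 without BLM 4, 49 and 47 without BLM 6, 172 and 116 without EXT9 3, 141 and 88 without EXT9 4, 148 and 97 without EXT9 5, and 189 and 147 without EXT9 6. Between EXT9 and EXT5 (14 and 17), the compounds alone gave 11 and 9, trend and robust variances 9 and 5, and leaving out an array 8 to 19 and 6 to 14. The replicate block gave 57 and 38 on second-run arrays, 351 and 1827 on all, and 9 and 4 between the compounds, but same-numbered mice share only a number (deviations correlated at -0.476 to 0.213). Of the 49 named genes called in both fits, all kept their sign in every setting, and on second-run arrays 17 were still called with the replicate block, 8 without BLM 1, 8 without BLM 4 and 12 without BLM 6. The causes were not tested. The 3 BLM arrays of the second run limit what that fit can show.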

Other observations

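In the 734 rows whose first-run values appear displaced, 515 probes were bright enough to test, and a second-run fit that kept them called 11 higher and 7 lower in EXT9. Besides *Vwf*, *Wars*, a tryptophanyl-tRNA synthetase gene, differed by -0.51 (adjusted p = 0.025 in limma), *Wfdc12* by 0.92 (adjusted p = 0.013) and *Vldlr*, a lipoprotein receptor gene, by 0.54 (adjusted p = 0.037). *Vim*, the vimentin gene of mesenchymal cells, was at 0.02 on its brighter probe (adjusted p = 0.96). Of the cholesterol and fatty acid synthesis list, *Lss*, which encodes lanosterol synthase, and *Srebf1*, a regulator of lipid synthesis, rose by 0.35 and 0.27 on second-run arrays (adjusted p = 0.036 and 0.022), 2 of 24 tested genes, beside 1.52% of all genes. With an array left out, the second-run call held in 2 of 9 fits for *Lss* and 6 of 9 for *Srebf1*. A dimmer *Lss* probe gave 0.03 on second-run arrays and -0.06 on all, without passing.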
